A study of Mus musculus with 6 samples.

Results

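Glutathione, glucuronide and sulfate conjugation enzymes were examined in whole-liver transcriptomes of mice that lack the kinase Pak4 in hepatocytes. The set held 63 protein-coding genes of the 45777 genes in the deposited table, taken by symbol alone. They were 22 glutathione S-transferases (Gsta, Gstk, Gstm, Gsto, Gstp, Gstt and Gstz genes) and 20 UDP-glucuronosyltransferases (Ugt1a, Ugt2a, Ugt2b and Ugt3a genes). The other 21 were cytosolic sulfotransferases (Sult genes). All mice were C57BL/6, 10 weeks old, and carried floxed Pak4 on both alleles, meaning an allele flanked by sites for Cre recombinase. The WT group (3 libraries) had no Cre, and the Pak4_KO group (3 libraries) also carried Alb-Cre, which drives Cre from the albumin promoter and so in hepatocytes, while other liver cells keep the gene. The labels name neither sex nor individual animals, and the p-values therefore cover only how far single libraries differ, which may be in part technical.

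Conjugation makes lipophilic compounds soluble enough to leave the body. Glutathione S-transferases join the tripeptide glutathione to reactive molecules, UDP-glucuronosyltransferases of the endoplasmic reticulum transfer glucuronic acid from UDP-glucuronic acid to bilirubin, steroids and drugs, and sulfotransferases transfer sulfate from the donor PAPS to phenols, steroids and bile acids. Liver is rich in all 3 families, and many of their genes respond to the nuclear receptors PXR and CAR, to the aryl hydrocarbon receptor and to NRF2.

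Library totals ran from 39603272 to 52521400 reads. Pak4 itself, as the check of the labels, fell from 6.51 ± 0.615 CPM in WT to 1.84 ± 0.441 CPM in Pak4_KO (SD, n = 3 each; CPM are reads scaled to the library total with TMM factors), which is -1.82 on the log2 scale (SE 0.24, edgeR adjusted p = 0.0169). In bulk liver, fewer cells of a type and less RNA per cell cannot be told apart. The 10 hepatocyte markers had a median log2 fold change of -0.03, with 4 positive and 6 negative. Other marker lists are given by their summed TPM (a transcript's share of the library, corrected for its length). Of the sums that follow, only those of neutrophil and lymphocyte markers separated the groups. The 7 neutrophil markers were all negative, with summed TPM of 86.8 to 149.6 in WT and 61.3 to 71.3 in Pak4_KO, and the 8 lymphocyte markers summed to 10.0 to 11.6 in WT and 22.5 to 33.6 in Pak4_KO. Of 7 gut markers, Cdx2, Alpi and Sis had no reads, Fabp2 was at 0.21 on the log2 scale, Lgals4 at -0.54 without overlap, and the summed TPM was 55.3 to 70.2 in WT and 58.9 to 83.2 in Pak4_KO. Of 7 exocrine pancreas markers, Cpa1, Prss2, Ctrb1 and Pnlip had no reads and Cela1 was at -1.01 without overlap, with sums of 14.8 to 18.1 TPM and 4.96 to 15.6 TPM. Of 5 adipocyte markers, Adipoq and Lep had no reads and Plin1 had 7, while Cidec was at 1.42, Cfd had at most 0.105 CPM in WT and 0.236 to 3.09 CPM in Pak4_KO, and the sums were 35.8 to 38.4 TPM and 33.0 to 219.9 TPM. The 8 Kupffer cell markers were all negative (median log2 fold change -0.24) and the 8 endothelial markers all positive (0.12). Of 8 cholangiocyte and 8 stellate cell markers, 7 each were positive (medians 0.67 and 0.16). The summed TPM of each of these lists overlapped between the groups. The part of these markers in the results was not tested.

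Of the 63 genes, 46 had enough reads to test. One sulfotransferase, Sult5a1, fell, and no gene of the 3 families rose at an edgeR adjusted p under 0.05 over all genes. This is 1 of 46, where 0.469% of the 16197 genes tested were called in either direction, 0.204% as lower and 0.265% as higher. A log2 fold change within 0.5 of 0 was found for 34 of 46 members (73.9%) and for 82.9% of all genes tested. The median was -0.11 over the 46 members, with 18 positive and 28 negative, beside 0.0045 over all genes tested, of which 50.7% were positive.

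Members whose libraries separated by group were more often lower than higher in Pak4_KO. The libraries of the groups did not overlap for 2 members on the higher side (Ugt1a9 and Gstt2) and 8 on the lower side (Gstp1, Gstp2, Gsta3, Ugt2b1, Ugt1a10, Sult1b1, Sult2a7 and Sult5a1), which is 21.7% of the 46. The same was seen for 13.4% of all genes, 7.35% higher and 6.06% lower. An unadjusted p under 0.05 was reached by 10 members (2 higher, 8 lower), again 21.7%, beside 8.21% of all genes, 4.51% higher and 3.69% lower. DESeq2 called 1 member higher (Ugt1a9) and 3 lower (Gstp2, Ugt2b1 and Sult5a1), and limma-voom called Sult5a1 alone. Over all 16189 genes with an adjusted p, DESeq2 called 334, with 175 higher and 159 lower. Of the 76 genes that edgeR called over the whole table, limma-voom also called 62. These counts describe the members and carry no test of the set.

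**Figure D1:**
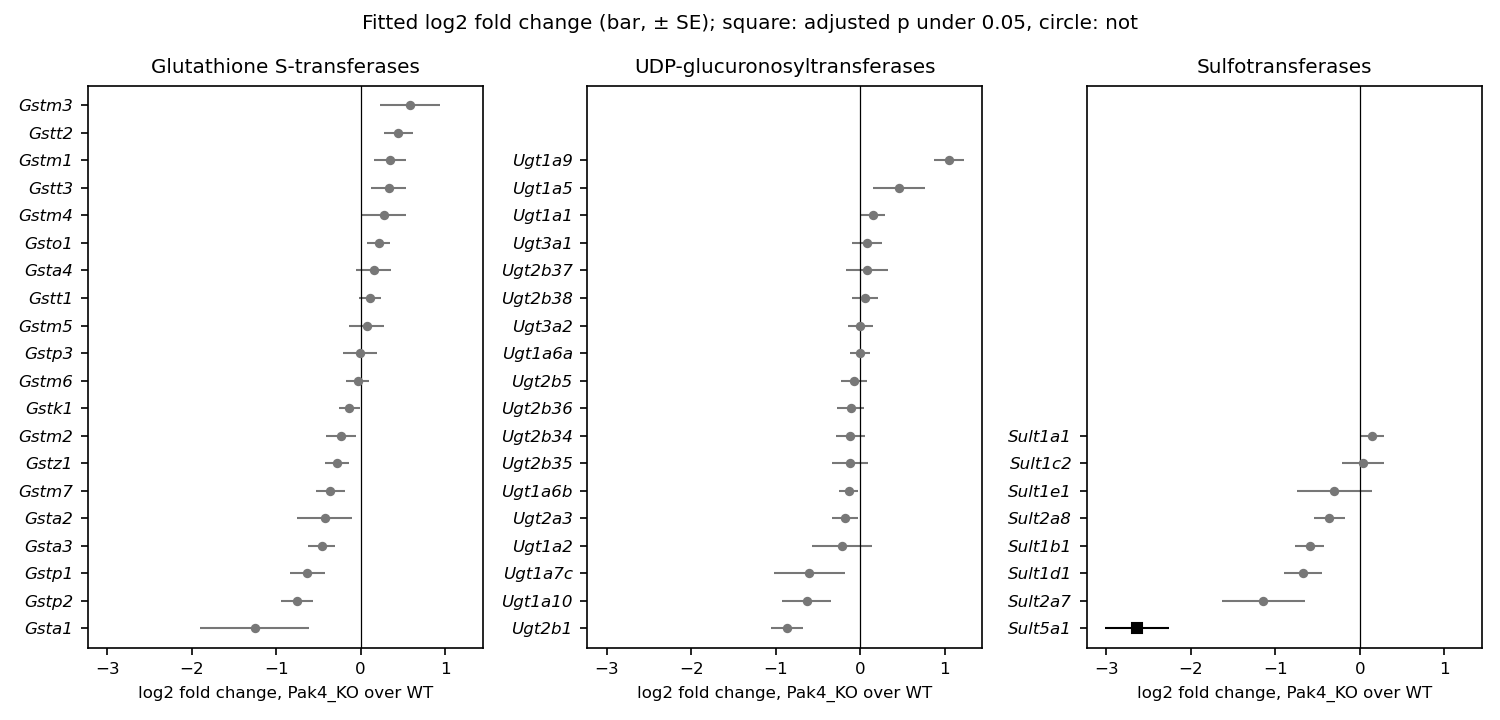
Fitted log2 fold change of Pak4_KO over WT for the 46 tested members (x axis), by family; bars are ± SE and the black square marks the 1 gene with an edgeR adjusted p under 0.05. Sult5a1, at -2.64, stands at the low end and Ugt1a9, at 1.05, at the high end.

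By level, glutathione S-transferases were the most abundant of the 3 families. Their summed TPM was 4163, 4117 and 4220 in the WT libraries and 3897, 3027 and 3456 in the Pak4_KO libraries, so every Pak4_KO library lay below every WT library. UDP-glucuronosyltransferases summed to 2649, 2621 and 2907 TPM in WT and 2986, 2390 and 2414 TPM in Pak4_KO, and sulfotransferases to 817, 862 and 901 TPM in WT and 894, 689 and 729 TPM in Pak4_KO. Both of these families overlapped between the groups. Together the 63 genes held 0.775% of all TPM in WT and 0.683% in Pak4_KO.

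**Figure D2:**
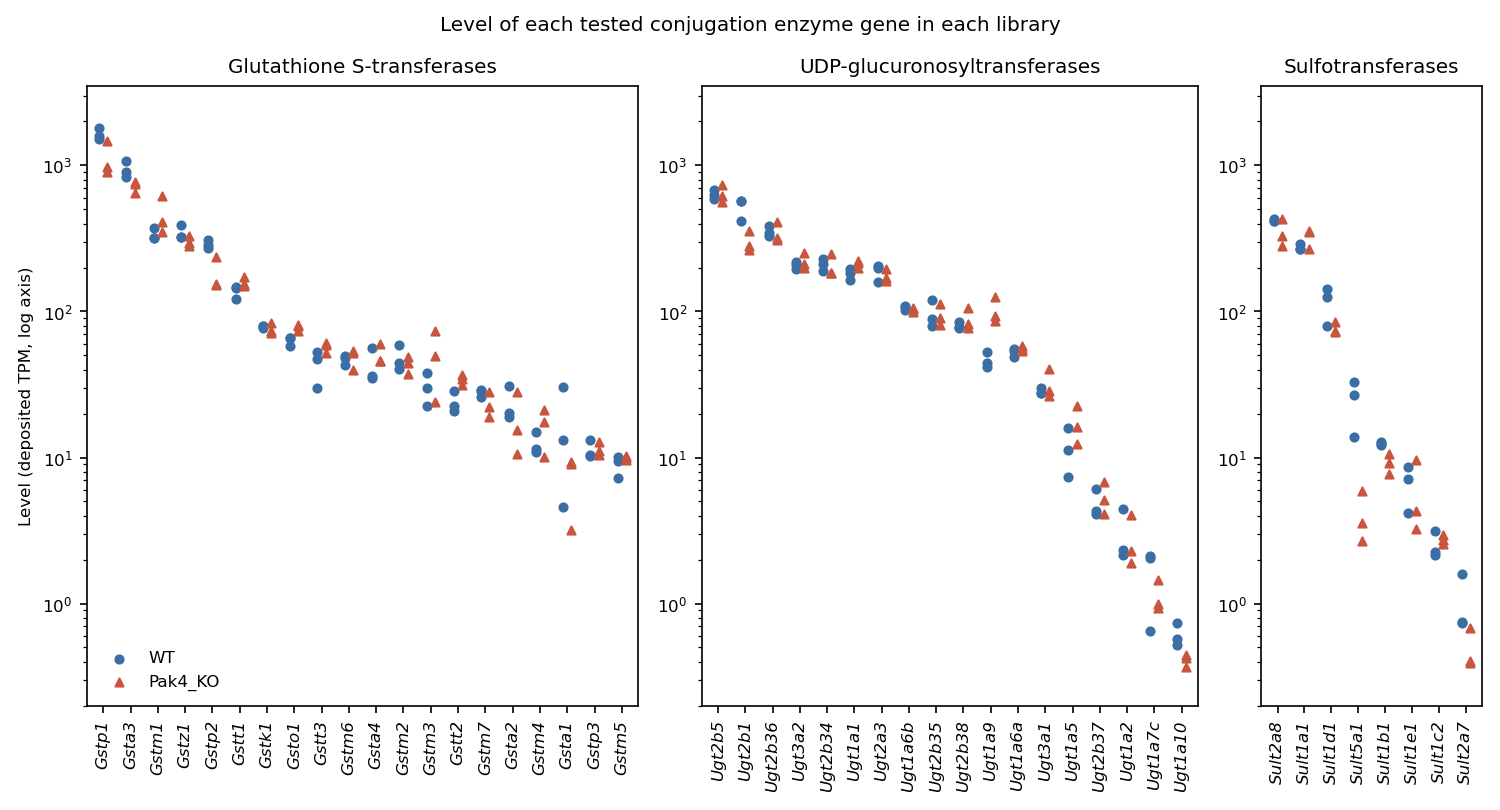
Level of each tested member in each library (deposited TPM, logarithmic y axis), ordered within each family by the mean over all 6 libraries; circles are WT and triangles Pak4_KO. Gstp1 leads the glutathione S-transferases, Ugt2b5 the UDP-glucuronosyltransferases and Sult2a8 the sulfotransferases, and Sult5a1 shows the widest gap between the groups.

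The upstream sequences of the genes with the clearest differences are shown first. RefSeq windows (GRCm38.p6, the build also called mm10) run from 250 bases before to 50 bases after a transcript start. They were matched by NCBI gene number for 55 of the 63 members. Both strands were searched for the antioxidant response element core TGACNNNGC, bound by NRF2, the xenobiotic response element core GCGTG, bound by the aryl hydrocarbon receptor, the HNF1 half-site GTTAAT and the nuclear receptor half-site AGGTCA, the last pair added after the data were seen. The first 3 lines are the class pi glutathione S-transferases, which lie side by side and differ in how they compare between the groups. The next 3 are Ugt1a genes that share their 3′ exons but start from separate promoters, followed by Gsta3, whose window is 1 of 3 among the members with the antioxidant core, and Sult5a1. Each line gives the 250 bases before the start, 5′ to 3′ on the gene's strand, with every match on either strand in capitals.

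Gstp1 (chr19:4037913-4038162, minus strand): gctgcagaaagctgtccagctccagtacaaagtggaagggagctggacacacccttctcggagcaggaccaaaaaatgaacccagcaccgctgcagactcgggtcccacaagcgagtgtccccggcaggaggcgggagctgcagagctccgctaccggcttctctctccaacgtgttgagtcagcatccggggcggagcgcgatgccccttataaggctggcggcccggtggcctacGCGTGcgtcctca
Gstp2 (chr19:4042222-4042471, minus strand): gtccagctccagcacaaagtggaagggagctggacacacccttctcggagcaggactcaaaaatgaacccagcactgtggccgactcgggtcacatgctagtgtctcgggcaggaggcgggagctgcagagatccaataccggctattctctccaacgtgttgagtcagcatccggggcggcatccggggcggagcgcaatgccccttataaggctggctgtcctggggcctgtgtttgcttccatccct
Gstp3 (chr19:4059448-4059697, minus strand): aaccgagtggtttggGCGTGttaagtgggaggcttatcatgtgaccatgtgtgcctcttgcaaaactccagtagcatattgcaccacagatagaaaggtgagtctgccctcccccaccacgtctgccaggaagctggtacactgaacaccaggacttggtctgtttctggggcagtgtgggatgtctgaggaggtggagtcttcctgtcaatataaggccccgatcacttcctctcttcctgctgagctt
Ugt1a9 (chr1:88070529-88070778, plus strand): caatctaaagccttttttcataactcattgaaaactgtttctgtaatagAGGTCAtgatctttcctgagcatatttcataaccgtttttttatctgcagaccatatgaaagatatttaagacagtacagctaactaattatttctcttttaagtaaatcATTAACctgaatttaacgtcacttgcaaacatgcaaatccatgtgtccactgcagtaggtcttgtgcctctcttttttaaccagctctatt
Ugt1a10 (chr1:88055161-88055410, plus strand): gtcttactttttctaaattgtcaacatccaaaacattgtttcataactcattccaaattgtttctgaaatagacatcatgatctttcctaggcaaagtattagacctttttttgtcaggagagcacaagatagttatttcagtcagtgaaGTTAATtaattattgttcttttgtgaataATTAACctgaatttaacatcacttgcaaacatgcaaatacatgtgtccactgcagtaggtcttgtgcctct
Ugt1a1 (chr1:88211709-88211958, plus strand): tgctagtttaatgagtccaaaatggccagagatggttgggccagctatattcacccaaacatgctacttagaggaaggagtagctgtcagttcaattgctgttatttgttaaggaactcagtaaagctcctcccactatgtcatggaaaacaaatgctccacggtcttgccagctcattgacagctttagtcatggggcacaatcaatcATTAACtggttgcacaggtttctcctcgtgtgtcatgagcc
Gsta3 (chr1:21240335-21240584, plus strand): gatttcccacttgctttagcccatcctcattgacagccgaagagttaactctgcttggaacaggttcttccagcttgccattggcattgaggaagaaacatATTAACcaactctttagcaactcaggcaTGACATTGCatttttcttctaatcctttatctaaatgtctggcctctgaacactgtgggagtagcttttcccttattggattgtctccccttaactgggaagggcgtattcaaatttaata
Sult5a1 (chr8:123158281-123158530, minus strand): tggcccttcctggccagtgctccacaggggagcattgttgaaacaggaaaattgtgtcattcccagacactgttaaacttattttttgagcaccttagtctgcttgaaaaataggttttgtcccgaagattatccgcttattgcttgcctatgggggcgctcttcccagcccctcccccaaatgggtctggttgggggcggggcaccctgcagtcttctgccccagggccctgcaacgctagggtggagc

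Gstp1 and Gstp2 were 78.5% identical over these 250 bases and Gstp1 and Gstp3 50.7%, which is close to the 49.7% between Ugt1a9 and Ugt1a1. Ugt1a9 and Ugt1a10 were 69.2% identical, and both hold the HNF1 half-site on the minus strand (printed as ATTAAC), as does Ugt1a1 nearer to its start. Over the whole windows, the antioxidant core was in 3 of 55 members (Gsta3, Gstm5 and Gstm7), or 5.5%, beside 14.0% of all genes with a window. The xenobiotic core was in 10 of 55 (18.2%, beside 35.2% of all genes). The HNF1 half-site was in 14 of 55 (25.5%, beside 8.2%), made up of 1 of 20 glutathione S-transferases, 6 of 18 UDP-glucuronosyltransferases and 7 of 17 sulfotransferases. Of these sulfotransferases, Sult1a1 and Sult1d1 were tested, while Sult2a3, Sult2a4, Sult2a5, Sult2a6 and Sult3a2 had no reads. The Sult2a transcripts among them are 88.1% to 94.0% identical to each other. AGGTCA was in 12 of 55 (21.8%, beside 18.1%). Over protein-coding genes alone, the antioxidant, xenobiotic, HNF1 and AGGTCA shares were 14.8%, 41.5%, 7.3% and 16.7%. Sult5a1 held none of the 4 in its window, which lies inside the annotated span of the gene. Only these exact letters were searched, so a window without a match may hold another form of an element. Gstp1 and Gstp2, for example, both hold tgagtcagc, which differs from the antioxidant core only by a G for the C. A match only describes the letters in these windows.

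Among glutathione S-transferases, 20 of 22 genes were tested, 9 with a positive and 11 with a negative log2 fold change, from -1.26 to 0.59 and with a median of -0.02. EdgeR called none, 4 had an unadjusted p under 0.05 (1 higher, 3 lower) and DESeq2 called 1, Gstp2. The lowest value was that of Gsta1, and the smallest p-values were those of Gstp2 and Gstp1, both class pi genes, of which Gstp1 had the highest TPM of the 22. Gstp2 and Gstp1 may share reads, so their p-values may not be independent.

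Gstp1 (NCBI gene 14870, chromosome 19, 4035411 to 4037912) had 790.0, 706 and 737 CPM in the WT libraries and 637, 439 and 364 CPM in the Pak4_KO libraries. Every Pak4_KO library was below every WT library, replicate 1 by the least. The log2 fold change was -0.63 (SE 0.21, edgeR adjusted p = 0.418). Gstp2 (NCBI gene 14869, chromosome 19, 4040288 to 4042221), a neighbouring copy, had 135, 127 and 133 CPM in WT and 103, 68.9 and 63.1 CPM in Pak4_KO. Again the groups did not overlap and Pak4_KO replicate 1 was nearest to WT. Its log2 fold change was -0.75 (SE 0.19, edgeR adjusted p = 0.235), and it was called by DESeq2 (adjusted p = 0.0195) and by edgeR without Pak4_KO replicate 1 (0.0297).

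Gstp3 (NCBI gene 225884), the third gene of the cluster, did not share this. It had 4.49, 6.17 and 4.85 CPM in WT and 5.64, 5.29 and 4.48 CPM in Pak4_KO, overlapping throughout, with a log2 fold change near 0 (-0.01, SE 0.20, edgeR adjusted p = 0.999) whose sign turned under other scalings (0.04 with library totals, 0.02 and 0.03 on TPM). The ratio of Gstp1 to Gstp3 reads was 147.4 ± 30.9 in WT and 92.3 ± 17.9 in Pak4_KO (SD, n = 3), without overlap (two-sided exact permutation p = 0.1, the smallest that 3 against 3 libraries can give). Gstp2 took 15.1% ± 0.400 of the Gstp1 and Gstp2 reads in WT and 14.1% ± 0.630 in Pak4_KO, which overlapped. Gstp1 and Gstp2 transcripts are 94.2% identical, below the cut-off for summing, so no summed row was tested for them. Reads could be split between these genes, and their lower values may not be separate differences. Summed over the 3 genes, the level was 1947 ± 166 TPM in WT and 1311 ± 362 TPM in Pak4_KO.

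Gsta3, a class alpha enzyme known for the detoxification of aflatoxin epoxide in mouse liver, was the next most abundant of the 22, at 935 ± 127 TPM in WT and 720.3 ± 67.6 TPM in Pak4_KO. It had 681, 779 and 937 CPM in WT and 632, 549 and 562 CPM in Pak4_KO. The Pak4_KO libraries were all lower and close together, while WT was spread, with WT replicate 1 near the Pak4_KO values. The log2 fold change was -0.46 (SE 0.16, edgeR adjusted p = 0.463). Gsta1 had 6.66, 16.4 and 2.45 CPM in WT and 1.60, 4.72 and 4.32 CPM in Pak4_KO, so its mean difference (log2 fold change -1.26, SE 0.64, edgeR adjusted p = 0.680) rests largely on WT replicate 2, without which it was -0.35. Gsta1 and Gsta2 transcripts are 97.2% identical, and reads could be split between them. As 1 summed row they gave -0.70 (SE 0.31, edgeR adjusted p = 0.620).

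Class mu and class theta genes had higher mean sums in Pak4_KO, but only the class theta sums separated the groups. The 7 Gstm genes summed to 511 ± 48.6 TPM in WT and 648 ± 178 TPM in Pak4_KO. Pak4_KO replicate 2, at 492 TPM, lay within the WT range of 477 to 566 TPM, and replicate 3 was highest at 841 TPM. Gstm2, Gstm6 and Gstm7 had negative log2 fold changes and the other Gstm genes positive ones. The 4 Gstt genes summed to 205 ± 18.2 TPM in WT and 250.3 ± 17.3 TPM in Pak4_KO, without overlap. Gstm1, the main class mu gene, had 243, 302 and 257 CPM in WT and 308, 279 and 431 CPM in Pak4_KO, where replicate 3 was highest and the groups overlapped (log2 fold change 0.34, SE 0.19, edgeR adjusted p = 0.706). Gstm7 had 20.8, 24.6 and 24.6 CPM in WT and 22.4, 15.6 and 16.6 CPM in Pak4_KO, overlapping through Pak4_KO replicate 1 (log2 fold change -0.36, SE 0.17, edgeR adjusted p = 0.655).

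Gstt2 had 16.7, 24.9 and 19.5 CPM in WT and 25.8, 29.3 and 28.3 CPM in Pak4_KO. All 3 Pak4_KO libraries were higher, although WT replicate 2 came close (log2 fold change 0.45, SE 0.17, edgeR adjusted p = 0.511). Gstt1, which acts on small halogenated compounds, had 74.5, 93.3 and 94.7 CPM in WT and 90.1, 97.1 and 96.8 CPM in Pak4_KO (log2 fold change 0.11, SE 0.13, edgeR adjusted p = 0.910), and its sign turned without WT replicate 1. Gstz1, the maleylacetoacetate isomerase of tyrosine breakdown, had 308, 391 and 322 CPM in WT and 309, 274 and 257 CPM in Pak4_KO. The groups touched at 1 library each, and the log2 fold change was -0.28 (SE 0.15, edgeR adjusted p = 0.690). The remaining 10 tested genes ran from Gsta2 at -0.43 to Gstm3 at 0.59, all overlapping between the groups. Gsto2 had 36 reads over all libraries and Gstt4 none.

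Among UDP-glucuronosyltransferases, 18 of 20 genes were tested, 7 with a positive and 11 with a negative log2 fold change and a median of -0.09. EdgeR called none, and Ugt1a9 and Ugt2b1 were the genes with an unadjusted p under 0.05 and those called by DESeq2. The largest differences in either direction were at Ugt1a9, higher in Pak4_KO, and at Ugt2b1, lower, each without overlap between the groups.

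The 8 Ugt1a genes start from separate first exons on chromosome 1, 7 of them ending at the same base (88220002), so their annotated spans overlap in all 28 pairs, and reads from the shared 3′ exons can be assigned to more than 1 gene. Ugt1a9 (NCBI gene 394434, 88070779 to 88220002), known for phenol substrates, had 78.3, 88.2 and 105 CPM in WT and 234, 166 and 163 CPM in Pak4_KO. Each Pak4_KO library was above each WT library, with replicate 1 highest. The log2 fold change was 1.05 (SE 0.18, edgeR adjusted p = 0.0617), or 2.07-fold higher. It was past the threshold in 4 of 16 alternatives: library totals without factors (0.0446), DESeq2 (5.79e-05), and limma-trend on TPM with a pseudocount of 1 (0.0445) or 0.1 (0.0316). Over all 16, the adjusted p ran from 5.79e-05 to 0.242.

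Within the locus, the share of reads given to Ugt1a9 was 12.1%, 11.5% and 13.3% in WT and 25.4%, 19.0% and 20.6% in Pak4_KO. That was a mean of 12.3% ± 0.929 against 21.7% ± 3.29 (SD, n = 3; two-sided exact permutation p = 0.1, the smallest possible, so none of the 8 shares compared could pass a threshold of 0.05). The shares of Ugt1a6b (20.3% to 15.7%), Ugt1a6a (14.4% to 12.3%) and Ugt1a10 (0.168% to 0.0903%) were lower in Pak4_KO without overlap, also with an exact p of 0.1. Shares add up to the whole of the locus, so a higher share of 1 gene lowers the others.

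Ugt1a1, the bilirubin glucuronosyltransferase and the main gene of the locus, had 309.7, 369 and 389 CPM in WT and 415, 421 and 345 CPM in Pak4_KO, overlapping (log2 fold change 0.15, SE 0.15, edgeR adjusted p = 0.886). The ratio of Ugt1a9 to Ugt1a1 reads was 0.253, 0.239 and 0.270 in WT and 0.562, 0.395 and 0.473 in Pak4_KO, without overlap. With all 8 genes summed into 1 row, the locus gave 734 ± 77.8 CPM in the WT group and 861 ± 66.4 CPM in the Pak4_KO group (log2 fold change 0.23, SE 0.14, edgeR adjusted p = 0.756).

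**Figure D3:**
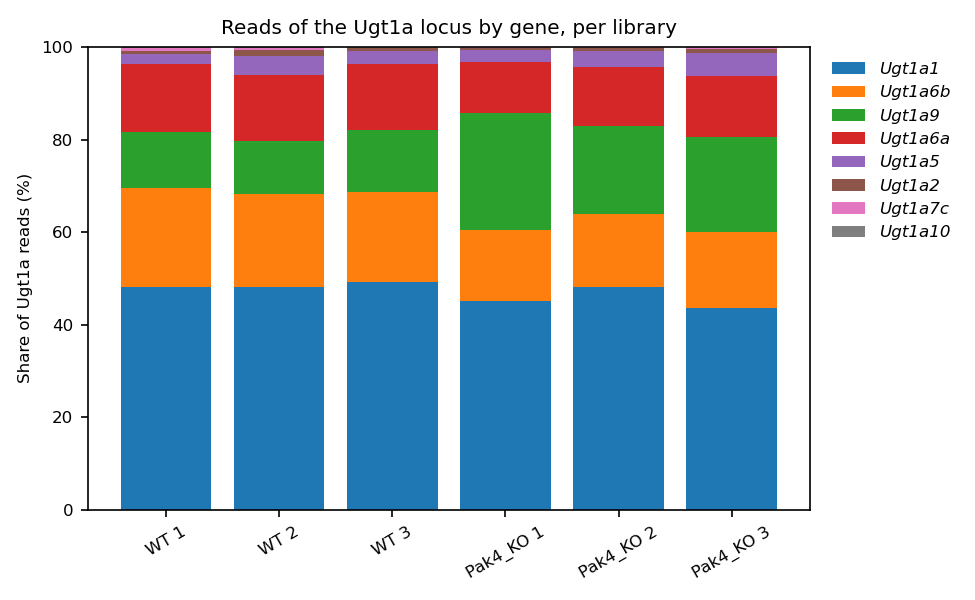
Share of the reads of the Ugt1a locus given to each of its 8 genes (y axis, percent) in each of the 6 libraries; each stacked bar starts at 0 and sums to 100. The Ugt1a9 band is between 11.5% and 13.3% in WT and between 19.0% and 25.4% in Pak4_KO.

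The low-level Ugt1a genes gave values in both directions. Ugt1a10 had 1.41, 1.16 and 1.05 CPM in WT and 0.849, 0.720 and 0.760 CPM in Pak4_KO, all lower (log2 fold change -0.63, SE 0.29, edgeR adjusted p = 0.641), whereas Ugt1a9, 69.2% identical to it over the upstream sequence, had higher values in Pak4_KO. Transcripts of Ugt1a10 and Ugt1a9 are 96.4% identical, and reads could be split between them. Ugt1a5 had 13.8, 32.0 and 22.3 CPM in WT and 22.9, 31.5 and 39.2 CPM in Pak4_KO (log2 fold change 0.46, SE 0.31, edgeR adjusted p = 0.785). Ugt1a7c had 3.99, 4.38 and 1.33 CPM in WT and 1.79, 1.99 and 2.58 CPM in Pak4_KO (log2 fold change -0.60, SE 0.42, edgeR adjusted p = 0.800). In the last pair of genes the groups overlapped, through WT replicate 3 in the case of Ugt1a7c.

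The Ugt2 genes lie with 3 sulfotransferase genes in a cluster of 13 genes over 702 kb of chromosome 5 (86889770 to 87591611). Of its 11 tested genes, 9 had a negative and 2 a positive log2 fold change, most of them small. Ugt2b1 (NCBI gene 71773, 86916639 to 86926503), a steroid- and drug-conjugating enzyme, had 856, 662 and 898 CPM in WT and 528, 435 and 362 CPM in Pak4_KO. No Pak4_KO library reached the lowest WT library. Its log2 fold change was -0.87 (SE 0.19, edgeR adjusted p = 0.142), or 1.82-fold lower. With a library left out, the edgeR adjusted p ran from 0.121 to 0.426. Only DESeq2, run on all libraries, called it (DESeq2 adjusted p = 0.00141).

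Ugt2b34, which ends 9701 bases from Ugt2b1, had 337, 431 and 399 CPM in WT and 438, 339 and 301 CPM in Pak4_KO, overlapping (log2 fold change -0.11, SE 0.18, edgeR adjusted p = 0.937). The ratio of Ugt2b1 to Ugt2b34 reads was 2.54, 1.53 and 2.25 in WT and 1.20, 1.28 and 1.20 in Pak4_KO, without overlap (two-sided exact permutation p = 0.1, the smallest possible). Against Ugt2b35, the next gene on its other side, the ratio was 4.30 ± 1.48 in WT and 2.42 ± 0.0510 in Pak4_KO, also without overlap.

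The other abundant Ugt2 genes were close in both groups. Ugt2b5, the most abundant of the family at 635 TPM over all libraries, had 652, 740.3 and 799 CPM in WT and 807, 641 and 631 CPM in Pak4_KO (log2 fold change -0.08, SE 0.16, edgeR adjusted p = 0.958), with a sign that turned on TPM. Ugt2b36 had 364, 407 and 452 CPM in WT and 449, 354 and 327 CPM in Pak4_KO (log2 fold change -0.11, SE 0.16, edgeR adjusted p = 0.932). Ugt2a3 had 247, 209.6 and 270.0 CPM in WT and 241, 215 and 184 CPM in Pak4_KO (log2 fold change -0.18, SE 0.15, edgeR adjusted p = 0.848). In these genes Pak4_KO replicate 1 was the highest of its group and lay within WT or above it. Ugt2b38 and Ugt2b5 transcripts are 95.5% identical, and their sum gave -0.06 (SE 0.16, edgeR adjusted p = 0.969).

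Ugt3a2, of the subfamily whose human members use other UDP sugars, had 267, 269 and 298 CPM in WT and 320.1, 280.3 and 235 CPM in Pak4_KO, with equal means of 278 CPM (log2 fold change 0.00, SE 0.15, edgeR adjusted p = 0.999). The remaining 7 tested genes had log2 fold changes between -0.22 (Ugt1a2) and 0.09 (Ugt3a1), with overlapping groups. Ugt2a1, an olfactory gene, had 2 reads over all libraries and Ugt2a2 none.

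**Figure D4:**
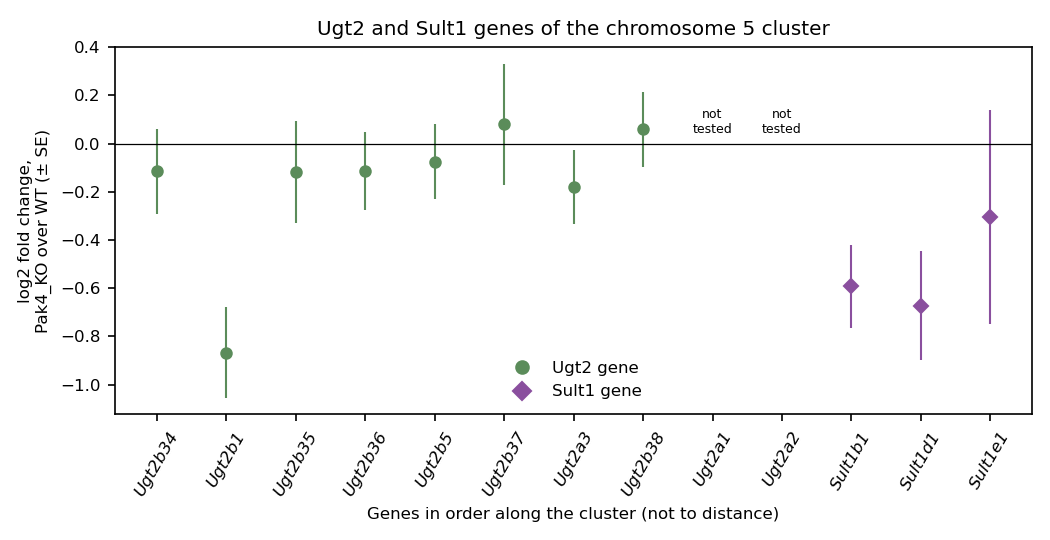
Log2 fold change of Pak4_KO over WT (y axis, points with ± SE bars) for the genes of the chromosome 5 cluster in their order along the chromosome (x axis, not to distance). Ugt2b1 at -0.87 stands below its neighbours Ugt2b34 at -0.11 and Ugt2b35 at -0.12, and the 3 sulfotransferase genes at the other end lie between -0.67 and -0.30.

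Sulfotransferases were the family with the fewest active genes and the lowest median, -0.48. Only 8 of 21 genes were tested, 2 with a positive and 6 with a negative log2 fold change. Sult5a1 was the member that fell.

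Sult5a1 (NCBI gene 57429, chromosome 8, 123142843 to 123158914), a sulfotransferase whose substrates are poorly known, had 22.5, 19.4 and 10.2 CPM in WT and 4.06, 2.54 and 1.78 CPM in Pak4_KO. These rest on 893, 923 and 515 reads in WT and 172, 120 and 89 reads in Pak4_KO. The highest Pak4_KO library was below the lowest WT library, WT replicate 3. The log2 fold change was -2.64 (SE 0.38, edgeR adjusted p = 0.0269), or 6.24-fold lower, and the level went from 24.4 ± 9.65 TPM to 4.05 ± 1.65 TPM (SD, n = 3). The direction held in all 18 alternatives and the call in 14, and it was lost without replicate 1 or 2 of WT (adjusted p = 0.0787 and 0.0732) and without replicate 2 or 3 of Pak4_KO (0.196 and 0.109).

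Genes known to differ between the sexes in mouse liver also differed between these groups. Of 9 tested female-biased genes 8 were positive, with a median of 1.00, and Cyp17a1 was the negative one at -1.81. The summed TPM was 35.7 to 49.6 in WT and 324 to 659.7 in Pak4_KO, most of it Cyp2a4 in Pak4_KO, and without Cyp2a4 it was 26.6 to 37.9 and 39.3 to 61.5. Of 11 male-biased genes 10 were negative, with a median of -0.48, and sums of 6638 to 12920 TPM in WT and 5640 to 8029 TPM in Pak4_KO. One gene of each list was called: Cyp2a4, a near copy of Cyp2a5, rose by 5.60 on the log2 scale (edgeR adjusted p = 0.000349) and Moxd1 fell by 8.44 (0.0369). The female-biased Cyp2b9 had 2 reads over all libraries. The part of these genes in the values of Sult5a1, Ugt2b1, Ugt1a9 and the Gstp genes was not tested.

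**Figure D5:**
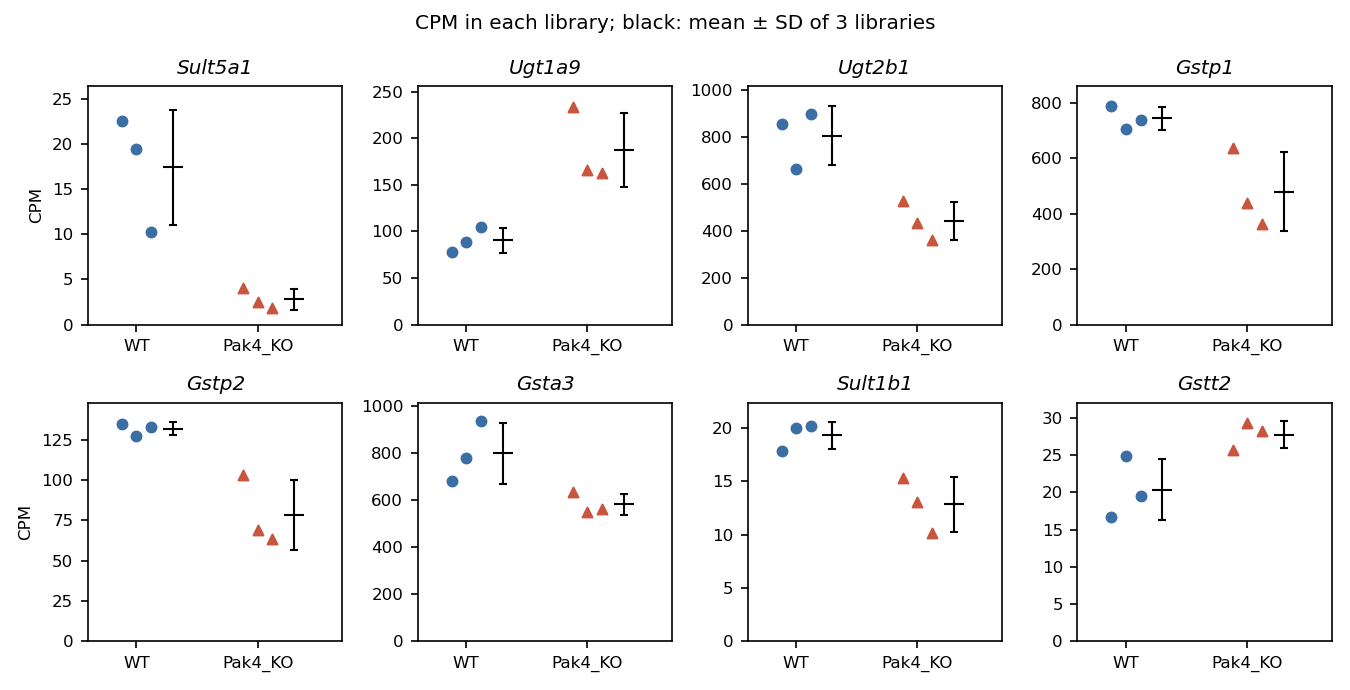
CPM of the 8 members shown in each library (y axis from 0), for 3 WT libraries (circles) and 3 Pak4_KO libraries (triangles), with black marks for the mean ± SD. In each panel the groups do not overlap, with Ugt1a9 and Gstt2 higher and the other 6 lower in Pak4_KO, and Sult5a1 goes from 17.4 to 2.79 CPM on average.

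The 3 sulfotransferases of the chromosome 5 cluster all had negative values. Sult1b1, which sulfates thyroid hormones, had 17.9, 20.0 and 20.2 CPM in WT and 15.3, 13.0 and 10.2 CPM in Pak4_KO, without overlap (log2 fold change -0.59, SE 0.17, edgeR adjusted p = 0.322). Sult1d1, an enzyme for catecholamines, had 112, 187 and 210.3 CPM in WT and 118, 107 and 94.4 CPM in Pak4_KO, where WT replicate 1 lay among the Pak4_KO libraries (log2 fold change -0.67, SE 0.23, edgeR adjusted p = 0.440). Sult1e1, the estrogen sulfotransferase, had 3.10, 6.78 and 5.57 CPM in WT and 7.08, 3.28 and 2.20 CPM in Pak4_KO (log2 fold change -0.30, SE 0.44, edgeR adjusted p = 0.934), and its sign turned without Pak4_KO replicate 3.

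Sult2a8, a bile acid sulfotransferase and the most abundant gene of the family, had 522, 553 and 571 CPM in WT and 530.4, 425 and 328 CPM in Pak4_KO. Only Pak4_KO replicate 1 reached the WT range (log2 fold change -0.36, SE 0.18, edgeR adjusted p = 0.680). Sult2a7 had 0.505, 1.12 and 0.517 CPM in WT and 0.260, 0.466 and 0.240 CPM in Pak4_KO, without overlap but at low level (log2 fold change -1.14, SE 0.49, edgeR adjusted p = 0.597). Both lie on chromosome 7 with Pak4, Sult2a8 at a distance of 14.11 Mb.

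Sult1a1, the main phenol sulfotransferase, was the other abundant gene, with 201, 215 and 232 CPM in WT and 263, 208 and 248 CPM in Pak4_KO (log2 fold change 0.15, SE 0.14, edgeR adjusted p = 0.870). Sult1c2 had 1.87, 2.86 and 2.05 CPM in WT and 2.50, 2.26 and 2.18 CPM in Pak4_KO (log2 fold change 0.03, SE 0.25, edgeR adjusted p = 0.996), and its sign turned on leaving out 1 of 3 libraries. In both genes the groups overlapped.

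Of the 13 sulfotransferase genes not tested, 9 had no reads: Sult1c1, Sult2a1, Sult2a3, Sult2a4, Sult2a5, Sult2a6, Sult2b1, Sult3a2 and Sult6b1. Sult2a2 had 3 reads, Sult4a1, a brain gene, 5 and Sult6b2 2. Sult3a1 had 16, of which 14 were in WT replicate 2 and 2 in Pak4_KO replicate 1. If reads are counted independently, a count of 0 allows up to 3 reads by counting error alone. That is 0.0571 to 0.0758 CPM depending on the library. Where each mate of a pair is counted, the bound would be higher.

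Genes that supply the cosubstrates, control the enzymes or transport the conjugates held no edgeR call in 6 further lists. Of their 92 tested genes, 7 higher and 5 lower had an unadjusted p under 0.05, beside 4.51% higher and 3.69% lower of all genes. DESeq2 and limma-voom called 0 of the 92. Of the 76 genes that edgeR called over the whole table, they called 76 and 62. Of 19 tested genes of glutathione synthesis and recycling, 8 were positive and 11 negative (median log2 fold change -0.08). The smallest unadjusted p-values were those of Ggt6, a gamma-glutamyltransferase, at 0.52 (edgeR adjusted p = 0.465), and of the dipeptidase Cndp2 at -0.37 (0.490). Of 11 other glutathione transferases and peroxidases, 4 were positive and 7 negative (median -0.06), with the microsomal transferase Mgst3 at 0.64 (0.542) and the prostaglandin E synthase Ptges at -0.96 (0.680).

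For glucuronidation, 9 of the 10 genes of UDP-glucuronic acid supply and glucuronide hydrolysis were negative (median -0.07), led by the nucleotide sugar transporter Slc35d2 at -0.66 (edgeR adjusted p = 0.480) and by Ugp2, which makes UDP-glucose, at -0.33 (0.582). For sulfation, 6 of 16 tested genes of PAPS supply and sulfate ester hydrolysis were positive and 10 negative (median -0.07). Arylsulfatase Arsa was at 0.68 (0.332) and Sumf2 at -0.30 (0.820). Of 12 transporters of conjugates, 8 of them ABC efflux pumps and 4 Slco uptake carriers, 6 were positive and 6 negative (median -0.04). Abcc3, which exports glucuronides to the blood, was at 0.58 (0.401) and the uptake carrier Slco1a4 at 0.68 (0.473).

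Of 24 tested regulators, 8 were positive and 16 negative (median -0.09), and the smallest unadjusted p-values were those of Foxa2 at -0.35 (edgeR adjusted p = 0.542) and Esrra at 0.67 (0.575). Nfe2l2, which encodes NRF2, was at -0.09 (SE 0.15, adjusted p = 0.947), Nr1i2, which encodes PXR, at 0.34 (SE 0.18, 0.686) and Nr1i3, which encodes CAR, at 0.08 (SE 0.41, 0.993). Ahr, the aryl hydrocarbon receptor, was at -0.46 (SE 0.23, 0.680) and Ppara at 0.30 (SE 0.28, 0.875). These are RNA levels of the regulators and not their activity.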

How the data were processed

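RNA from whole liver was sequenced as 6 libraries with a stranded, polyadenylated-RNA kit, per the labels' protocols. HISAT2 2.1.0 and StringTie 2.1.3b with the build mm10 are among the tools in the submitters' processing notes. How reads were counted, with which strand setting, and what was done with multiply matching reads is not given in the sources used here, so near-copies and overlapping genes may share reads. The authors deposited whole-number read counts per gene, not normalized, per the file headers, with FPKM (not used here) and TPM beside them, per the file headers. Counts of 2 were more frequent than counts of 1 in every library, as where each mate of a pair is counted.

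Counts were filtered by filterByExpr (16197 genes kept), scaled by TMM and compared between Pak4_KO and WT with the two-sided quasi-likelihood F-test of edgeR 4.0.16 (R 4.3.3). A call needed an adjusted p under 0.05, by Benjamini-Hochberg over all genes. CPM are TMM-scaled. The SE of a log2 fold change is its size over the square root of F. Read shares and ratios within a locus were compared by exact permutation over libraries. The members, gene lists and tests were chosen with earlier results of these data known. Values per library are given for called members and, in each family, for the 6 with the highest TPM and the 6 with the smallest p. From other lists, called genes or the 2 with the smallest p are named, and 5 regulators whatever their values. Coordinates are 1-based RefSeq positions on GRCm38.p6. Transcript identity came from blastn 2.17.0 on GENCODE transcripts, from 95% identity over at least 50% of the shorter one, and promoter identity from global alignment. On simulated data of this comparison (16197 genes), the share called was 1.82% at a 1.5-fold change, 29.3% at 2-fold and 78% at 4-fold, and 8.86% of calls were false. Alternatives were other scalings and filters, DESeq2 1.42.0, limma-voom and limma-trend (limma 3.58.1) on log2(TPM + 1) and log2(TPM + 0.1), a replicate block, each library left out, and near-identical genes summed.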

Additional observations from a re-analysis of the deposited data

How the results depend on the processing

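Sult5a1 was the only member called in 9 of 18 alternatives. Of 46 members, 32 kept the sign of their log2 fold change in every alternative. Of the 14 that turned, 9 turned only when a library was left out, and the largest main value among the 14 was 0.304 in size. The members called higher went from 0 to 1 (Ugt1a9) with library totals, with the DESeq2 Wald test and on TPM with either pseudocount. Those called lower went from 1 to 3 (Gstp2, Sult5a1 and Ugt2b1) with DESeq2, and ran from 0 to 2 when a library was left out. Over all genes, the 76 called (43 higher, 33 lower) became 44 (16 higher) with at least 10 reads in every library, 334 (175 higher, 159 lower) with DESeq2, and 37 to 81 (22 to 34 higher, 13 to 47 lower) with a library left out. The lowest totals came without WT replicate 1 (44), WT replicate 2 (46), Pak4_KO replicate 2 (38) and Pak4_KO replicate 3 (37). The cause was not tested. Same-numbered libraries of the groups had correlations of 0.0669, -0.201 and 0.147 between their deviations from the group means. Deviations within a group of 3 cancel, so these correlations cannot decide whether the numbers pair the libraries. With the replicate number as a block, 73 genes were called (39 higher, 34 lower), and Sult5a1 was the only member among them (edgeR adjusted p = 0.00266). WT replicate 2 correlated best with Pak4_KO replicate 1 (0.191), not with its own number. WT replicates 1 and 3 correlated best with their own numbers, each by little (0.0669 beside 0.0644, 0.147 beside 0.137). Signs turned for Gstm6 (0.020 with library totals, 0.043 and 0.044 on TPM), Gstp3 (0.037, 0.025 and 0.027), Ugt1a6a (0.052, 0.084 and 0.085, also 0.0028 with at least 10 reads, 0.0031 with limma-voom and 0.0030 with the block), Ugt2b5 (0.0027 on TPM with either pseudocount) and Ugt3a2 (-0.0053 with DESeq2 size factors and test, -0.0018 with no filter, -0.0063 with limma-voom and -0.0078 with the block). With a library left out, the log2 fold change spanned 0 for Gstm5 (-0.088 to 0.19), Gstm6 (-0.12 to 0.058), Gstp3 (-0.11 to 0.14), Gstt1 (-0.00054 to 0.18), Ugt1a2 (-0.54 to 0.21), Ugt1a6a (-0.083 to 0.048), Ugt2b35 (-0.27 to 0.092), Ugt2b37 (-0.14 to 0.27), Ugt2b38 (-0.10 to 0.15), Ugt3a1 (-0.13 to 0.19), Ugt3a2 (-0.11 to 0.11), Sult1c2 (-0.094 to 0.24), Sult1e1 (-0.91 to 0.0015). The planned sum of members with near-identical RefSeq proteins was not run. GENCODE transcripts were used in its place, chosen after seeing the data, and changed no call. At this number of libraries, the simulated test called 29.3% of genes changed 2-fold, so differences of that size could be missed.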

Other observations

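Gstm2-ps1, a pseudogene with a glutathione S-transferase symbol that is no protein-coding member, was read in every library, with 223, 310 and 292 reads in WT and 289, 281 and 463 reads in Pak4_KO. Its level was 5.99 ± 0.475 CPM in WT and 7.34 ± 1.72 CPM in Pak4_KO (SD, n = 3), or 0.30 higher on the log2 scale (SE 0.21, edgeR adjusted p = 0.803). The groups overlapped, and reads could be shared with its class mu relatives.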
